A study of Homo sapiens with 11 samples.

Results

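A set of 916 cardiomyocytes that carried messages of *TFPI2*, *GFRA1* or *CDH18* was described among 13426 cardiomyocytes and 16397 cell barcodes of human cardioids and 2D culture. Cardioids are chambered heart organoids, here grown from H9, an established line of human embryonic stem cells. The groups were cardioids with PD173074, an inhibitor of FGF receptors, cardioids without PD173074, and H9 cells in 2D culture, all collected on day 42.5. The labels do not give the dose or the time of PD173074, nor how many cardioids were pooled. A cardiomyocyte was a barcode with at least 1000 UMIs (unique molecular identifiers, 1 per captured transcript), at least 500 genes, at most 30% mitochondrial UMIs and at least 0.15% of its UMIs from *TNNT2* and *MYH6*. Members were chosen by their UMI counts, with 3 or more UMIs of *TFPI2*, *GFRA1* and *CDH18* together and no UMI of *SHOX2*, a sinus node transcription factor. They numbered 541 of 3385 cardiomyocytes with PD173074, 242 of 3082 without PD173074 and 133 of 6959 in 2D culture.

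TFPI2 is a secreted inhibitor of serine proteases with Kunitz domains, and it is deposited in the extracellular matrix. GFRA1 is the surface receptor that binds GDNF and signals with the receptor tyrosine kinase RET, and CDH18 is a classical cadherin best known from neurons. None of these is a standard marker of a heart chamber.

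Stretches before the starts of *GNG11* and *FSTL5* are shown because the RNAs of these genes were higher in members of both cardioids and because they differ in base composition. They were read from RefSeq on GRCh38.p14, 5′ to 3′ on the strand of the gene, and hold those of the 250 bases before the RefSeq start that lie before the first GENCODE 29 exon, since the start of each gene differs by 36 and 35 bases between the annotations. They lie at chr7:93921485-93921698 (plus strand) for *GNG11* and chr4:162164036-162164250 (minus strand) for *FSTL5*. Capitals mark matches to GGGCGG, searched on both strands.
GNG11: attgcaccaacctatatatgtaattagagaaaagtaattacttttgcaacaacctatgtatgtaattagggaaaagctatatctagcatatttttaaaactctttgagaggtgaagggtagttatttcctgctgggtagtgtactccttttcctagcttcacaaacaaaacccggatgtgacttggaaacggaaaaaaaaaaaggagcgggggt
FSTL5: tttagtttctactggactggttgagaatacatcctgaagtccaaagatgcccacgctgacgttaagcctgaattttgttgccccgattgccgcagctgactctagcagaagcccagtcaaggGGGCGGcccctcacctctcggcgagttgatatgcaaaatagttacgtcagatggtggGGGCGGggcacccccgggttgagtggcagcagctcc
The stretch before *GNG11* had 36.4% G and C and 3 CpG pairs, and that before *FSTL5* 55.8% and 10. GGGCGG was found at 128 and 71 bases before the RefSeq start of *FSTL5* and in 42.6% of the 250-base windows before 35116 RefSeq starts. No match was found before *GNG11*. AGATAA, the motif of GATA factors, was found in neither stretch and in 9.17% of the windows. The window of *TFPI2* is not shown, since 238 of its 250 bases lie within the gene as GENCODE 29 gives it.

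The 11 libraries were repeat runs of 3 sets of droplets, 3 runs of the cardioid with PD173074, 5 of the cardioid without it and 3 of the 2D culture. Any 2 libraries of a group shared 99.3% to 99.9% of the barcodes of the shorter list (16 pairs), and libraries of different groups shared 0.195% to 0.737% (39 pairs). Each group was therefore 1 sample, run 1 was used, and no test between groups could be made. Run 1 held 37765195 UMIs with PD173074, 23074862 without PD173074 and 46304366 in 2D culture. All intervals given are exact 95% counting intervals (binomial for shares, Poisson or conditional binomial for levels and ratios), except the Wald intervals of ratios of ratios. They hold counting error only, not the spread between cultures. Those of levels and ratios count UMIs as independent, so they also leave out the spread between cells.

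Members made up 16.0% of the cardiomyocytes with PD173074 (interval 14.8% to 17.3%), 7.85% of those without PD173074 (6.93% to 8.86%) and 1.91% of those in 2D culture (1.60% to 2.26%). The share with PD173074 was 2.04 times the share without it, a difference of 8.13 percentage points. Members were the deeper cells, with a median of 7086 UMIs with PD173074, 6383 without PD173074 and 6510 in 2D culture, against 5978.5, 5311 and 4275.5 in the other cardiomyocytes of the same groups. The UMIs of the 3 genes were then thinned to a depth of 2000 UMIs per cell, and 2 were required. The *SHOX2* condition and the cardiomyocyte limit still used all UMIs. The shares were 9.58%, 5.21% and 1.33% of 3111, 2916 and 6444 cardiomyocytes, after 274, 166 and 515 shallower ones were left out. The ratio of the thinned shares with and without PD173074 was 1.84, and the order of the groups was the same.

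The 3 genes were not private to cardiomyocytes. Among barcodes under the *TNNT2* and *MYH6* limit, 3 or more UMIs were found in 129 of 1241 (10.4%) with PD173074, 53 of 485 (10.9%) without PD173074 and 94 of 1245 (7.55%) in 2D culture, at median depths of 8591, 5520 and 6461 UMIs. After thinning these shares were 4.10%, 5.16% and 3.69%. The thinned member share was above that value with PD173074, next to it without PD173074 and below it in 2D culture, so the shares without PD173074 and in 2D culture are not by themselves read as expression. The barcodes under the limit held mostly *TFPI2*, at 84.7, 108 and 80.5 CPM (UMIs of the gene per 1000000 UMIs of the cell set) with PD173074, without it and in 2D culture, and *GFRA1* there was at 3.94, 7.87 and 6.27 CPM. They were not a cell type known to lack *TFPI2*, and the part of free RNA in the counts was not tested.

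The levels that chose the members are given as a description. *TFPI2* was at 643 CPM in members and 24.9 CPM in other cardiomyocytes with PD173074, 456 and 18.1 CPM without PD173074, and 296 and 14.6 CPM in 2D culture. *GFRA1* was at 108 and 19.1 CPM, 112 and 20.9 CPM, and 93.0 and 11.7 CPM in the same order, and *CDH18* at 241 and 27.6, 182 and 11.3, and 117 and 3.79 CPM. *TFPI2* was the gene most often found, in 401 of 541 members with PD173074, 169 of 242 without PD173074 and 96 of 133 in 2D culture. *GFRA1* was found in 220, 113 and 49 members and *CDH18* in 287, 115 and 42, so most members carried no *GFRA1* UMI. At least 2 of the 3 genes were detected in 305 members with PD173074 (56.4%), 130 without PD173074 (53.7%) and 49 in 2D culture (36.8%), and all 3 in 62, 25 and 5.

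The limit of 3 UMIs ran through a continuous range. Just inside it lay 149, 72 and 73 members with exactly 3 UMIs with PD173074, without PD173074 and in 2D culture, and just outside it 253, 172 and 181 cells with exactly 2. Members with 6 or more UMIs numbered 253, 86 and 17. The *SHOX2* condition removed 54, 7 and 0 cells that had 3 or more UMIs. In the repeat runs of the same droplets, 408 of the 541 members with PD173074 (75.4%) again met the rule in run 2 and 426 (78.7%) in run 3, against 169 (69.8%) and 97 (40.1%) of the 242 without PD173074 and 55 (41.4%) and 57 (42.9%) of the 133 in 2D culture. The 2D members were thus the least repeatable, along with run 3 without PD173074, in which 118 cells in all met the rule.

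**Figure D1:**
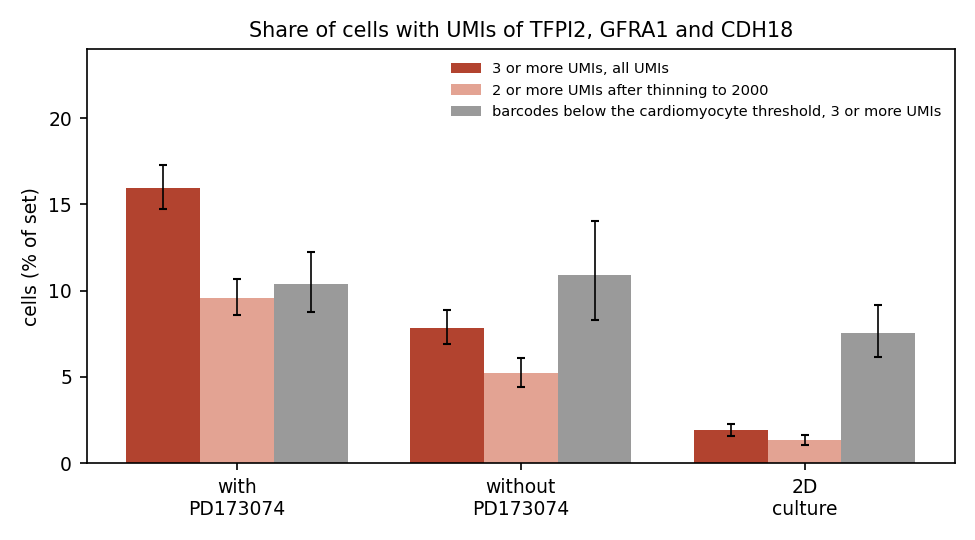
Share of cardiomyocytes that were members in each group, in percent, at full depth and after thinning to 2000 UMIs, with error bars for the 95% binomial counting intervals. Grey bars give the share of barcodes under the cardiomyocyte limit with 3 or more UMIs of the rule genes (10.4%, 10.9% and 7.55%). The cardioid with PD173074 had the highest member share at both depths (16.0% and 9.58%) and the 2D culture the lowest (1.91% and 1.33%).

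The members were cardiomyocytes by the rule, as were the cells they were compared with. Most cardiomyocyte markers outside the rule did not pass the limit for a difference between these sets. Of 12 cardiomyocyte markers other than the rule genes, none was higher and 2 were lower in members than in other cardiomyocytes with PD173074 and without PD173074 (*TNNC1* and *CSRP3*), and 1 (*TNNC1*) was lower in 2D culture. Such counts use genes at 10 CPM or more in either set whose whole ratio interval lay beyond 1.5-fold, which 1.61% of 10467 genes passed as higher and 1.57% as lower with PD173074, 1.15% and 0.228% of 10511 without PD173074, and 1.45% and 0.0843% of 10682 in 2D culture. The median log2 ratio over all genes was 0.02, 0.01 and 0.05. *PROM1* and *FSTL5* were named as markers of these cells with earlier results of these data known, and the rule did not use them. They were higher in members of every group, which is given as a description. *PROM1*, which encodes the membrane protein prominin 1, was at 23.7 CPM in members and 6.59 CPM in other cardiomyocytes with PD173074, 18.8 and 6.38 CPM without PD173074 and 16.4 and 4.44 CPM in 2D culture. *FSTL5*, a secreted protein of the follistatin-like family, was at 31.4 and 6.69 CPM, 111 and 35.0 CPM, and 63.8 and 17.3 CPM.

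At the stricter limit used for single genes (20 CPM or more in the higher set and the whole interval beyond 2-fold), 48 genes other than the rule genes were higher in members with PD173074 (0.607% of 7905 genes) and 39 were lower (0.493%). Without PD173074, 27 were higher (0.336% of 8026) and 6 were lower (0.0748%). The cardioids are separate sets of droplets, and 10 genes were higher in members of both, which is 20.8% of the 48 and 37.0% of the 27. None was lower in both. Among the 10 were *FSTL5*, *SAMD5*, *GNG11*, *PEG10*, *LINGO2*, *CPNE8*, AL355612.1 and AL033504.1. AL033504.1 lies on the same strand as *SAMD5* and overlaps part of it in the annotation, so the counts of this pair may not be independent.

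These genes encode signalling, adhesion and imprinted products. *SAMD5*, a protein with a sterile alpha motif, was at 100.3 CPM in members and 36.9 CPM in other cardiomyocytes with PD173074 and at 40.1 and 10.2 CPM without it. *LINGO2*, a membrane protein with leucine-rich repeats, was at 109 and 42.5 CPM with PD173074 and 48.5 and 15.2 CPM without it. *CPNE8*, a calcium-dependent phospholipid-binding copine, was at 51.7 and 17.5 CPM with PD173074 and 35.1 and 12.0 CPM without it. For each of these the level was higher with PD173074 in members and in other cardiomyocytes alike, and the members were above the others in both cardioids. *CPNE8* did not reach the limit in 2D culture, at 28.3 and 19.7 CPM (0.52, -0.05 to 1.04).

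**Figure D2:**
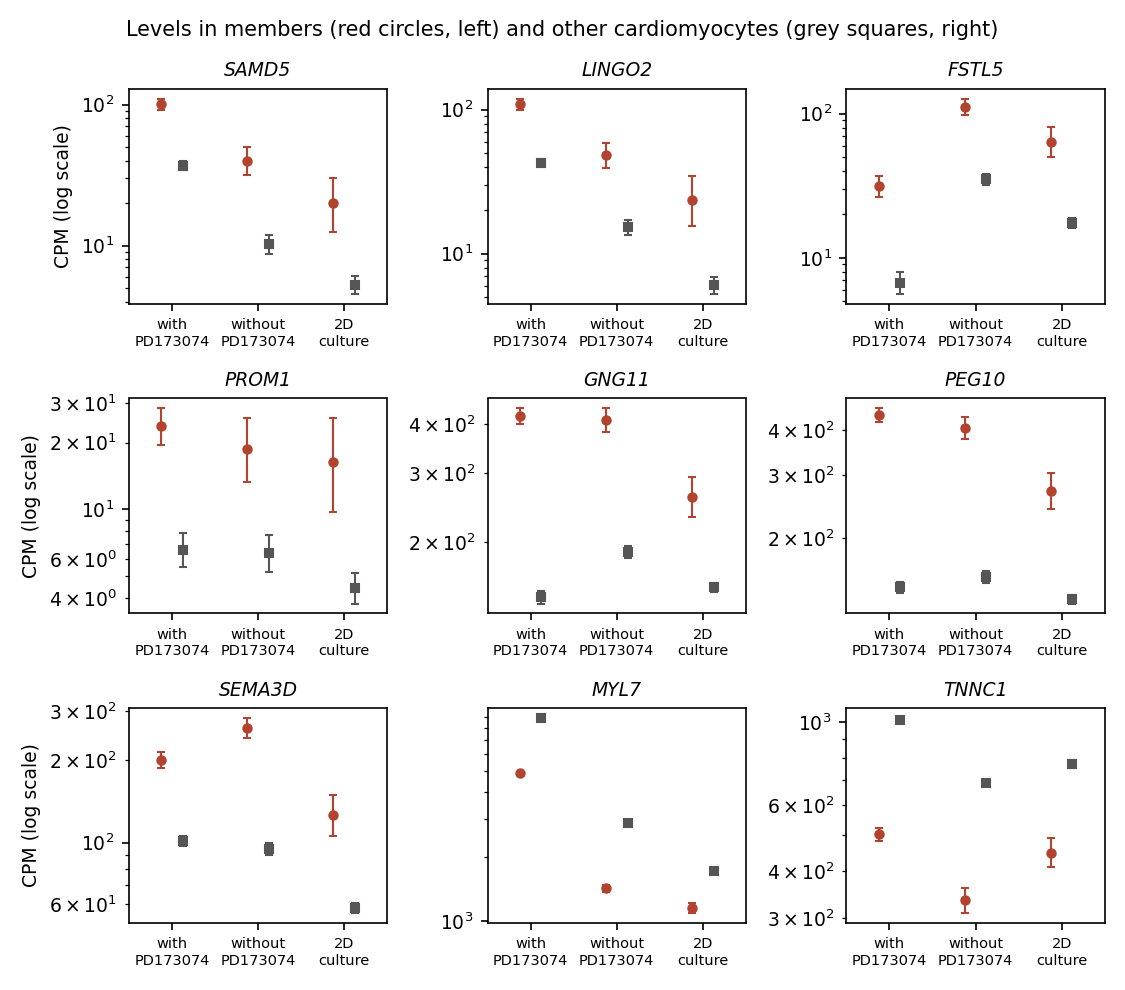
Levels in CPM (log scale) of 9 genes not used by the rule in members and in other cardiomyocytes of the 3 groups, with bars for the 95% Poisson counting intervals. *GNG11* and *PEG10* were about as high in members with PD173074 as in members without it, and *MYL7* was lower in members than in other cardiomyocytes of each group.

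The levels moved with the number of UMIs of the 3 rule genes on both sides of the limit. With PD173074, *PEG10*, a paternally expressed imprinted gene derived from a retrotransposon, was at 127, 206, 318 CPM in cells with 0, 1 and 2 UMIs and at 320.3, 373, 361 and 521 CPM in members with 3, 4, 5 and 6 or more. Without PD173074 the same series was 120.2, 243, 362 and then 269, 361, 304 and 565 CPM, and in 2D culture 128, 169.9, 194 and then 223, 292, 408 and 328 CPM. In both cardioids the lowest level was in cells with 0 UMIs and the highest in members with 6 or more. Between 2 and 3 UMIs the level was nearly the same with PD173074 and lower at 3 without PD173074. *GNG11*, a gamma subunit of heterotrimeric G proteins, ran from 123 CPM at 0 UMIs to 503 CPM at 6 or more with PD173074, from 176 to 482 CPM without PD173074 and from 143 to 366 CPM in 2D culture. *MYL7*, the atrial myosin light chain, ran the other way, from 9446 to 3783 CPM with PD173074, from 2869 to 1301 CPM without PD173074 and from 1779 to 977 CPM in 2D culture.

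**Figure D3:**
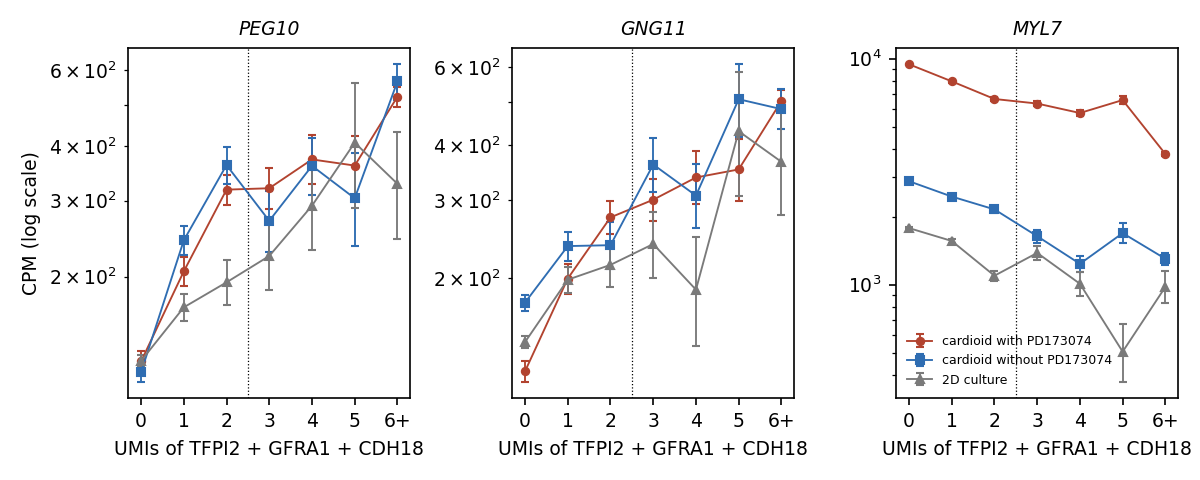
Level in CPM (log scale) of *PEG10*, *GNG11* and *MYL7*, which the rule did not use, plotted against the number of UMIs of *TFPI2*, *GFRA1* and *CDH18* in the cell (0 to 6 or more) for the 3 groups, with bars for the 95% Poisson counting intervals. *PEG10* and *GNG11* were higher and *MYL7* lower at 6 or more UMIs than at 0 in each group.

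When *SHOX2*-free cardiomyocytes were split by *TFPI2* alone (0, 1 to 2, and 3 or more UMIs), *PEG10* was at 159.8, 308 and 547 CPM with PD173074, 146, 308 and 598 CPM without PD173074 and 132, 182 and 345 CPM in 2D culture. The level was higher at each step in all 3 groups. *GFRA1* and *CDH18* also went with *TFPI2* in the cardioids: *GFRA1* was at 30.9, 57.6 and 73.0 CPM with PD173074 and 28.1, 38.9 and 61.2 CPM without it, and *CDH18* at 47.9, 93.6 and 162 CPM and 21.3, 38.9 and 127 CPM. *GNG11* was at 135, 307 and 598 CPM with PD173074, 177, 346 and 596 CPM without PD173074 and 143, 259 and 371 CPM in 2D culture, so it followed *TFPI2* in every group.

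On chromosome 7, *TFPI2* (chr7:93885396-93890991, minus strand) has *GNG11* 30.7 kb away and *PEG10* 765 kb away. *GNG11* was at 419 CPM in members and 144 CPM in other cardiomyocytes with PD173074 (log2 ratio 1.54, 1.46 to 1.62), at 410.0 and 189 CPM without PD173074 (1.12, 1.01 to 1.23) and at 261 and 153 CPM in 2D culture (0.77, 0.59 to 0.94). *PEG10* was at 439 and 146 CPM (1.59, 1.51 to 1.67), 405 and 156 CPM (1.38, 1.26 to 1.49), and 271 and 136 CPM (1.0, 0.82 to 1.17). Both were higher in members of all 3 groups. *SGCE*, the imprinted sarcoglycan gene that shares a start region with *PEG10*, had lower log2 ratios than *PEG10*, at 0.57, 0.09 and -0.21. *BET1*, a vesicle transport gene 113 kb away, had 0.92, 0.37 and 0.32, *CASD1* had 0.47, 0.37 and 0.13, and *VPS50*, at -659 kb, on the other side, had -0.01, 0.12 and 0.33. *COL1A2*, a collagen chain 504 kb away, was higher with PD173074 (1.10) and in 2D culture (1.28) but not without PD173074 (-0.25). *CALCR*, the calcitonin receptor at -316 kb, was under the level limit, at 3.23 CPM in members and 0.397 CPM in other cardiomyocytes with PD173074 and 3.46 and 0.293 CPM without it. Within 1 Mb of *TFPI2*, *GNG11* and *PEG10* were thus higher in all 3 groups, and *VPS50*, *CASD1* and *SGCE* lay closer to the median of all genes. *GNGT1* overlaps *TFPI2* on the opposite strand in the annotation.

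**Figure D4:**
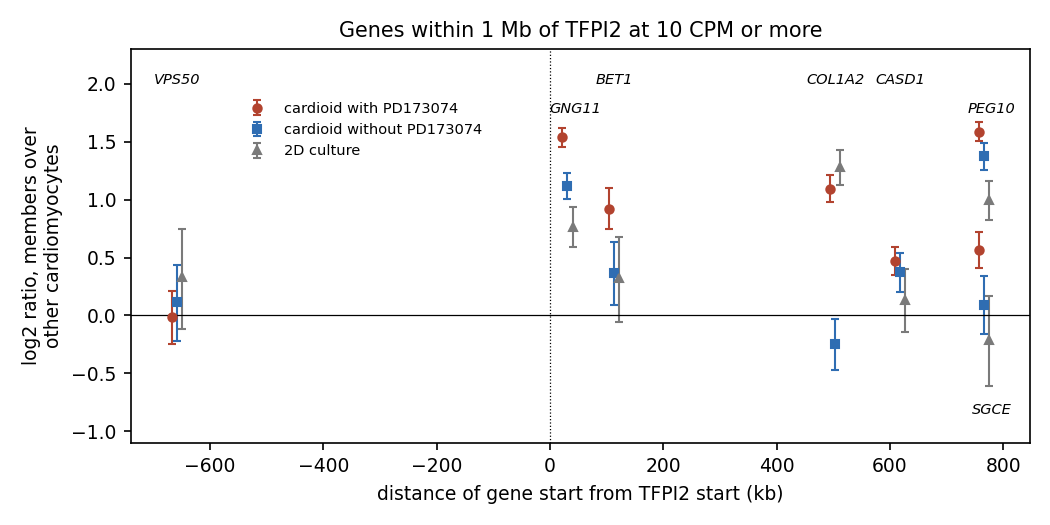
Log2 ratio of the level in members over that in other cardiomyocytes for genes within 1 Mb of the *TFPI2* start, plotted against distance in kb, with bars for the 95% counting intervals. *GNG11* and *PEG10* lay above 0 in all 3 groups, and *SGCE* and *VPS50* lay near 0 in the cardioids apart from *SGCE* with PD173074 at 0.57.

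Genes that work with the rule genes were counted by list. Of the genes of the GDNF family, its receptors and adaptors, 9 were measured with PD173074 and 7 without PD173074, and none was higher in members. *RET*, the signalling receptor used by GFRA1, had 0, 1 and 0 UMIs in all members with PD173074, without PD173074 and in 2D culture, and *GDNF* had 0, 0 and 0. The ligand was therefore not detected, and the receptor only by 1 UMI in members without PD173074. A count of 0 was taken to allow up to 3 counts at this depth. Of the Kunitz and serpin inhibitors and the clotting and plasmin genes, 1 of 10 was higher with PD173074, 2 of 9 without PD173074 and 3 of 10 in 2D culture, where 1.61%, 1.15% and 1.45% of all genes were. *SERPINE2*, an inhibitor of thrombin and plasminogen activators, was among them in all 3, at 47.4 CPM in members and 15.1 CPM in other cardiomyocytes with PD173074, 56.9 and 23.2 CPM without PD173074 and 101 and 24.6 CPM in 2D culture, where 1 cell held 37.8% of its 111 member UMIs. *TFPI*, the related inhibitor of tissue factor, was at 15.7 and 7.98 CPM with PD173074 and 12.9 and 12.0 CPM without it. Of the cadherins other than *CDH18*, 0 of 12 was higher with PD173074 and 1 of 10 without it (*CDH4*).

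Several guidance and adhesion molecules known from neurons were higher in members, and some differed between the cardioids. Of the axon guidance and synaptic adhesion genes, 2 of 23 were higher and 1 lower with PD173074, 4 of 22 were higher without PD173074 and 5 of 23 in 2D culture. *SEMA3D*, a secreted semaphorin, was at 199.6 CPM in members and 101 CPM in other cardiomyocytes with PD173074, 261 and 95.2 CPM without PD173074 and 126 and 58.0 CPM in 2D culture. *CNTN6*, a contactin, was at 280.1 and 219 CPM with PD173074, a log2 ratio of 0.36, but at 127 and 41.3 CPM (1.62) without PD173074 and 48.3 and 10.2 CPM (2.24) in 2D culture. The members of the cardioids differed less in *CNTN6* than the other cardiomyocytes, which were high with PD173074. *KCNIP4*, a subunit of potassium channels, was at 2071 and 1258 CPM with PD173074 and 2465 and 817 CPM without it. Among genes called with PD173074, *PLXNC1*, a semaphorin receptor, was at 97.5 and 28.0 CPM, *COL25A1*, a transmembrane collagen, at 61.6 and 17.1 CPM, and *GPM6A*, a neuronal membrane protein, at 21.3 and 4.61 CPM. *TGFB2*, a secreted ligand, was at 264 and 107 CPM with PD173074 and 278 and 156 CPM without it.

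Several sarcomere and maturation genes were lower in members, and their lists had medians below that of all genes. Of 25 sarcomere genes measured in each group, 0 were higher, and 4 were lower with PD173074 (*TNNC1*, *MYL7*, *CSRP3* and *DES*), 7 without PD173074 and 3 in 2D culture, with median log2 ratios of -0.20, -0.34 and -0.35. *MYL7* was at 4902 CPM in members and 8858 CPM in other cardiomyocytes with PD173074 (log2 ratio -0.85), 1424 and 2889.5 CPM without PD173074 (-1.02) and 1158 and 1725 CPM in 2D culture (-0.58). *TNNC1*, cardiac troponin C, was at 501 and 1011 CPM, 334 and 687 CPM, and 448 and 771 CPM. *TNNC1* was lower in members of all 3 groups, with log2 ratios of -1.01, -1.04 and -0.79. The summed share of *TNNT2* and *MYH6*, which the rule used for all cardiomyocytes, also had lower medians in members, at 0.486%, 0.416% and 0.348% of UMIs against 0.606%, 0.495% and 0.370%; its part in the sarcomere result was not tested. Of 13 genes of mature contractile isoforms and energy use measured in each group, 2 were lower with PD173074, 6 without PD173074 (*MYH7*, *MYL2*, *MYL3*, *TNNI3*, *CKM* and *MB*) and 2 in 2D culture, and 0 were higher.

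Chamber genes gave no single direction. Of the atrial genes, *MYL7* was lower in both cardioids and *NR2F2*, an atrial nuclear receptor, was lower with PD173074, at 234 CPM in members and 459 CPM in other cardiomyocytes, against 67.3 and 91.1 CPM without PD173074. *NPPA*, atrial natriuretic peptide, was at 77.1 and 121 CPM with PD173074 and 21.8 and 21.6 CPM without it. *SLN*, the atrial regulator of the calcium pump, was at 17.0 and 11.3 CPM with PD173074 and 25.7 and 3.45 CPM without it, where 9 members held its 52 UMIs. Of the ventricular genes, 3 of 9 were higher (*IRX3*, *IRX4* and *LBH*) and 1 lower (*CD36*) with PD173074, whereas 3 of 13 were lower without PD173074 and 3 of 12 in 2D culture. *MYL2*, the ventricular myosin light chain, was low in both sets with PD173074, at 4.31 CPM in members and 3.12 CPM in other cardiomyocytes, and it was at 4.95 and 40.2 CPM without PD173074 and 17.3 and 90.9 CPM in 2D culture. *MYH7*, the slow ventricular myosin, was at 10.8 and 12.4 CPM with PD173074, 18.8 and 40.5 CPM without PD173074 and 34.6 and 117 CPM in 2D culture. The members were thus below the other cardiomyocytes in both isoforms in 2D culture and without PD173074, and with PD173074 both sets were low.

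Genes of mitosis were also lower. Of the genes of the G2 and M phases, 7 of 15 were lower in members with PD173074 (*CENPF*, *CCNB1*, *CCNB2*, *CDK1*, *NUSAP1*, *UBE2C* and *BIRC5*), 3 of 14 without PD173074 (*CCNB2*, *UBE2C* and *BIRC5*) and 1 of 8 in 2D culture (*CENPF*), with medians of -0.91, -0.69 and -0.61 and 0 higher. *CCNB1*, the mitotic cyclin, was at 10.1 CPM in members and 30.6 CPM in other cardiomyocytes with PD173074. None of 13 and 12 S phase genes passed in either direction in the cardioids. Glycolysis genes were higher in part with PD173074, where 3 of 22 passed (*ENO1*, *ENO3* and *LDHA*, median 0.40), against 0 of 22 without it (median -0.05). *LDHA*, lactate dehydrogenase, was at 1045 CPM in members and 617 CPM in other cardiomyocytes with PD173074 and at 1905 and 1788 CPM without it.

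With PD173074 the genes lowest in members included smooth muscle, retinoid and nodal genes. *MYH11*, smooth muscle myosin, was at 1.94 CPM in members and 36.2 CPM in other cardiomyocytes, *ALDH1A1*, an enzyme of retinoic acid synthesis, at 4.52 and 75.9 CPM, and *MYLK*, myosin light chain kinase, at 28.9 and 171 CPM. *BMP4*, a secreted ligand, was at 17.9 and 86.5 CPM and *FGF12*, an intracellular modulator of sodium channels, at 72.6 and 184 CPM. Of the sinus node and conduction genes, 6 of 13 were lower (*ISL1*, *TBX18*, *CACNA1D*, *RGS6*, *GNAO1* and *BMP4*), against 0 of 11 without PD173074. The rule bears on this contrast, since members had no *SHOX2* UMI and 470 of the 3385 cardiomyocytes with PD173074 had one. The part of the *SHOX2* condition in the count of 6 was not tested. In the split of *SHOX2*-free cardiomyocytes by *TFPI2* alone, *ISL1* was not clearly lower with PD173074. Its level in the highest *TFPI2* class was 0.905 times that in cells with 0 UMIs of *TFPI2*. Without PD173074 the same value was 3.38. When cells with *SHOX2* were also left out of the other cardiomyocytes, a comparison chosen after the data were seen, 20 of the 39 lower genes still passed, as did 40 of the 48 higher ones. Without PD173074, 6 of 6 and 26 of 27 still passed. *MYLK* and *FGF12* still passed, and *MYH11*, *ALDH1A1* and *BMP4* did not, with 9.31, 12.4 and 41.9 CPM in the other cardiomyocytes free of *SHOX2*. *MYH11* and *ALDH1A1* were then below the limit of 20 CPM and could not pass, while still at 1.94 and 4.52 CPM in members.

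Markers of other cell types were read in the same cells. With PD173074 the summed level of 11 stromal markers was 960 CPM in members and 748 CPM in other cardiomyocytes, and without PD173074 it was 391 and 469 CPM. In 2D culture it was 1397 and 609 CPM, and 7 of 9 measured stromal markers were higher in members there. The 10 smooth muscle markers summed to 2643 and 3313 CPM, 1587 and 1761 CPM, and 1787 and 1808 CPM in members and others of the 3 groups. The 17 epithelial markers summed to 617 and 705 CPM with PD173074, 553 and 512 CPM without PD173074 and 409 and 468 CPM in 2D culture. Of 15 endoderm markers, 9, 11 and 14 were at 0 in members, and of 10 blood markers, 7, 7 and 8. These counts depend on depth, since the members held 4644023, 2021839 and 1096932 UMIs in all. The endoderm marker *APOA1* was at 14.2 CPM in members and 9.87 CPM in other cardiomyocytes with PD173074. It was at 24.7 and 36.0 CPM without PD173074 and 45.6 and 52.5 CPM in 2D culture. The 10 epicardial markers summed to 280 and 215 CPM with PD173074, 380 and 185 CPM without PD173074 and 214 and 158 CPM in 2D culture, of which *SEMA3D* gave the larger part in members. Without *SEMA3D* the sums were 80.3 and 114 CPM, 119 and 89.5 CPM, and 88.4 and 100.4 CPM, so that with PD173074 and in 2D culture the sum was lower in members. *TBX18* was at 1.29 and 12.4 CPM with PD173074, where the other cardiomyocytes kept cells with *SHOX2*. The part of stromal RNA in the 2D members' result was not tested.

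The members were not uniform. By the rule gene with the most UMIs, 291, 129 and 76 were led by *TFPI2* with PD173074, without PD173074 and in 2D culture, 159, 66 and 28 by *CDH18* and 68, 35 and 21 by *GFRA1*, with 23, 12 and 8 ties. *FSTL5* was at 28.9 CPM in *TFPI2*-led, 31.1 CPM in *CDH18*-led and 37.6 CPM in *GFRA1*-led members with PD173074 and at 105 CPM in *TFPI2*-led, 105 CPM in *CDH18*-led and 124 CPM in *GFRA1*-led members without it.

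*TFPI2*-led and *CDH18*-led members differed in atrial genes with PD173074. *NPPA* was at 17.3 CPM in *TFPI2*-led, 204 CPM in *CDH18*-led and 15.7 CPM in *GFRA1*-led members. *MYL7* was at 3691 CPM in *TFPI2*-led, 7172 CPM in *CDH18*-led and 4496 CPM in *GFRA1*-led members. *NR2F1*, an atrial nuclear receptor, was at 22.0 CPM in *TFPI2*-led, 105 CPM in *CDH18*-led and 11.0 CPM in *GFRA1*-led members, and *NR2F2* at 153 CPM in *TFPI2*-led, 433 CPM in *CDH18*-led and 103 CPM in *GFRA1*-led members. The *CDH18*-led members were the highest of the 3 classes in each of these genes, and the *TFPI2*-led and *GFRA1*-led members were low in *NPPA*, *NR2F1* and *NR2F2*. *GNG11* followed *TFPI2*, at 610.0 CPM in *TFPI2*-led, 228 CPM in *CDH18*-led and 229 CPM in *GFRA1*-led members with PD173074 and 549 CPM in *TFPI2*-led, 310.4 CPM in *CDH18*-led and 158 CPM in *GFRA1*-led members without it. *PEG10* was at 559 CPM in *TFPI2*-led, 214 CPM in *CDH18*-led and 524 CPM in *GFRA1*-led members with PD173074 and 523 CPM in *TFPI2*-led, 251 CPM in *CDH18*-led and 279.8 CPM in *GFRA1*-led members without it, so it was high in both *TFPI2*-led and *GFRA1*-led cells with PD173074. These classes were set by the rule genes and carry no test.

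Between members with and without PD173074, 63 genes were higher (0.775% of 8133) and 73 were lower (0.898%). In the other cardiomyocytes of the same samples 243 were higher (3.01% of 8084) and 195 lower (2.41%), from many more UMIs and so with narrower intervals. The 63 higher genes were 37 when members were chosen after thinning to 2000 UMIs, with levels still summed from all their UMIs. They were 35 when cells with 3 or more epithelial or endoderm UMIs were left out. The genes that marked the members in both cardioids mostly did not differ between them by these limits. *GNG11* was at 419 CPM in members with PD173074 and 410.0 CPM in members without it (log2 ratio 0.03, -0.09 to 0.15) and *PEG10* at 439 and 405 CPM (0.12, 0.00 to 0.24). *SAMD5* (1.32, 0.98 to 1.68) and *LINGO2* (1.17) were above 0 and did not pass the 2-fold limit. *FSTL5* was the exception, at 31.4 and 111 CPM (-1.82, -2.13 to -1.52), and it was lower with PD173074 in other cardiomyocytes too (-2.39).

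Atrial genes were higher in members with PD173074. *NR2F1* was at 46.3 CPM in members with PD173074 and 3.96 CPM in members without it, and its antisense RNA *NR2F1-AS1* at 21.1 and 2.47 CPM. *NR2F2* was at 234 and 67.3 CPM, *NPPA* at 77.1 and 21.8 CPM and *MYL7* at 4902 and 1424 CPM. In all 5 the members with PD173074 were the high set. Among the other genes with the highest ratios were *XKR4*, a scramblase-family membrane protein, at 30.1 and 1.48 CPM (4.34, 2.77 to 6.64), *TLL1*, a metalloprotease that cleaves procollagen, at 35.1 and 3.46 CPM, *NTN4*, a netrin of basement membranes, at 63.5 and 6.43 CPM, and *CNTN3*, a contactin, at 77.5 and 10.9 CPM. *CREB5*, a transcription factor, *CACNA2D3*, a calcium channel subunit, and *NELL1*, a secreted protein, had log2 ratios of 2.77, 2.80 and 2.65. *COL3A1*, a fibrillar collagen of stromal cells, was at 388 and 99.9 CPM. At the 1.5-fold limit used for lists, 6 of 8 stromal markers were higher in members with PD173074, where 1.99% of all genes were. In other cardiomyocytes 5 of 8 were higher, where 5.83% of all genes were. The part of stromal RNA in these results was not tested.

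Several secreted factors and their regulators were lower in members with PD173074. *RSPO3*, a secreted enhancer of WNT signalling, was at 94.5 CPM in members with PD173074 and 794 CPM in members without it (log2 ratio -3.07, -3.23 to -2.92), against 125 and 1052 CPM in other cardiomyocytes (-3.07). *TBX3*, a transcription factor of the conduction system, was at 67.6 and 241 CPM in members (-1.83) and 58.3 and 268 CPM in other cardiomyocytes (-2.20). *HAS2*, the synthase of hyaluronan, was at 16.1 and 94.5 CPM in members. Members and other cardiomyocytes were lower side by side for *RSPO3* and *TBX3*. Among the lowest ratios in members were those of *COLEC12*, a scavenger receptor, at 1.29 and 33.1 CPM (-4.68, -6.18 to -3.48), *NEFM*, a neurofilament, at 6.24 and 86.6 CPM, *NDUFA4L2*, a mitochondrial protein induced in hypoxia, at 10.3 and 136 CPM, and *MASP1*, a protease of the complement lectin pathway, at 7.75 and 93.0 CPM. *GRIA1* and *GRIA4*, glutamate receptor subunits, had log2 ratios of -2.82 and -2.73, and *GRAMD1B*, a sterol transfer protein, -2.82.

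By list, at the 1.5-fold limit, 1.99% of 10630 genes were higher and 1.98% lower in members, and 5.83% and 5.22% of 10635 in other cardiomyocytes, with medians over all genes of -0.07 and -0.08. Both cell sets come from the same samples, so the columns are set side by side and not correlated. Atrial genes had 4 of 11 higher and 0 lower in members (median log2 ratio 0.56), against 7 and 0 of 11 in other cardiomyocytes (0.89). Ventricular genes had 1 of 13 higher and 6 lower in members (median log2 ratio -0.78), against 2 and 11 of 14 in other cardiomyocytes (-1.75), and *IRX3*, *IRX4* and *IRX5* were among the lower ones in both. Sinus node and conduction genes had 3 of 11 higher and 1 lower in members (median log2 ratio 0.55), against 10 and 1 of 14 in other cardiomyocytes (1.36). The rule bears on this list, since only the other cardiomyocytes kept cells with *SHOX2*, and the part of that condition was not tested. Genes of the feedback of FGF and ERK signalling, the pathway downstream of the receptors that PD173074 blocks, had 1 of 9 higher and 3 lower in members (median log2 ratio -0.53), against 2 and 5 of 9 in other cardiomyocytes (-0.91). In members *SPRED2*, *ETV5* and *CCND1* were lower and *EGR1* higher. *DUSP6*, a phosphatase induced by ERK, was at 11.6 and 16.8 CPM in members and did not pass, and *ETV5*, an FGF-responsive transcription factor, was at 3.45 and 11.4 CPM.

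Glycolysis genes had 0 of 22 higher and 3 lower in members (median log2 ratio -0.39), against 1 and 13 of 22 in other cardiomyocytes (-0.71). Hypoxia response genes had 0 of 18 higher and 2 lower in members (median log2 ratio -0.64), against 0 and 12 of 18 in other cardiomyocytes (-0.90). BMP and TGF-beta response genes had 0 of 16 higher and 3 lower in members (median log2 ratio -0.35), against 1 and 8 of 17 in other cardiomyocytes (-0.57). In each of these lists the median lay nearer to 0 in members than in other cardiomyocytes, and members had fewer UMIs and so wider intervals. Immediate early genes, which respond to handling as well as to signals, had 8 of 19 higher and 1 lower in members (median log2 ratio 0.88), against 13 and 2 of 19 in other cardiomyocytes (1.27).

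**Figure D5:**
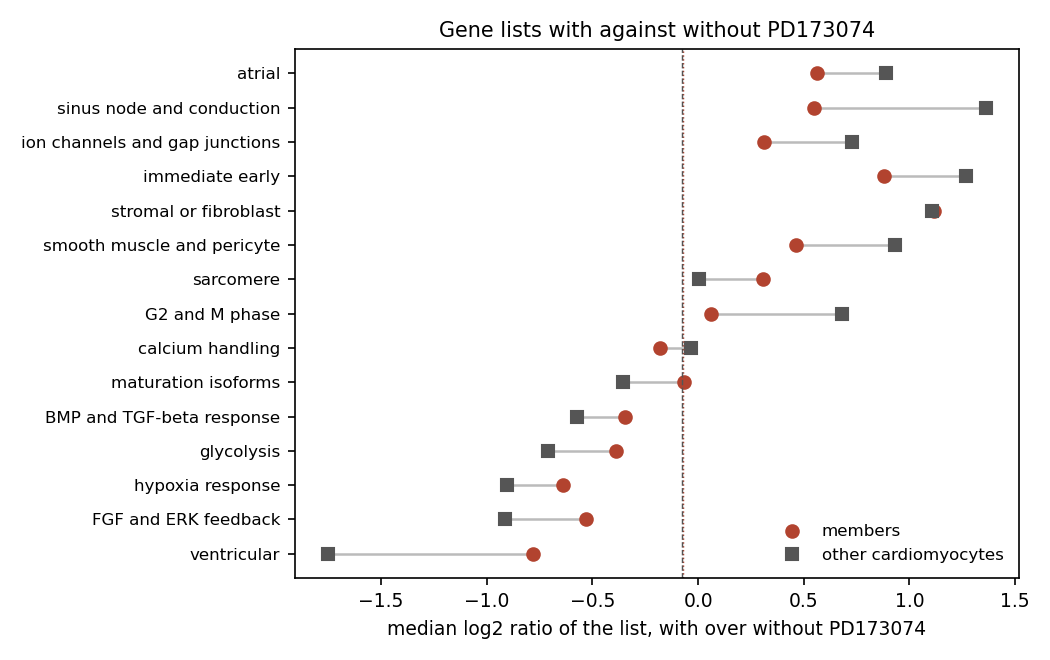
Median log2 ratio of the level with PD173074 over that without it for gene lists, in members and in other cardiomyocytes of the 2 cardioids. For ventricular genes the median was -0.78 in members and -1.75 in other cardiomyocytes, and for atrial genes 0.56 and 0.89.

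The difference between the cell sets was measured gene by gene as the ratio with over without PD173074 in members divided by that ratio in other cardiomyocytes. Its interval lay beyond 1.5-fold upward for 62 genes (0.734% of 8444) and downward for 66 (0.782%). *BMP2*, a secreted ligand, was at 155 CPM in members with PD173074 and 457 CPM in members without it, against 86.9 and 556 CPM in other cardiomyocytes, a log2 ratio of ratios of 1.12, 0.96 to 1.28. *ID4*, a transcriptional regulator downstream of BMP, was at 379 and 1288 CPM in members and 176 and 1255 CPM in other cardiomyocytes (1.07, 0.96 to 1.17). Both genes were lower with PD173074 in both cell sets, and less so in members. *IRX3* (1.60, 1.07 to 2.14) and *IRX4* (1.21, 0.82 to 1.59), ventricular transcription factors, and *MYL2* (3.49, 2.33 to 4.64) also had ratios of ratios above 0; *MYL2* was low in members of both cardioids, and its change lay in the other cardiomyocytes. *VCAN*, a matrix proteoglycan, had 0.83, 0.76 to 0.91, and *LDHA* and *PGK1*, enzymes of glycolysis, had 0.67, 0.60 to 0.74 and 0.69, 0.60 to 0.78.

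Below 0 lay *ISL1* (-2.29, -3.19 to -1.39), *BMP4* (-1.57, -2.41 to -0.72), *MYLK* (-1.58, -2.16 to -1.0), *KCNG1* (-2.48, -3.90 to -1.06) and *CDH20* (-2.88, -4.21 to -1.55), which were higher with PD173074 than without it in the other cardiomyocytes. The rule bears on these ratios, since members had no *SHOX2* UMI while cells with *SHOX2* stayed among the other cardiomyocytes. The part of the *SHOX2* condition in the ratios of ratios was not tested. *CNTN6* (-1.27, -1.49 to -1.04), *CNTN4* (-0.84, -0.95 to -0.74), *GRM7* (-1.63, -1.93 to -1.34), a glutamate receptor, and *KCNIP4* (-0.87, -0.93 to -0.82) were also below 0. *GABRP*, an epithelial marker, was at 37.5 CPM in members with PD173074 and 9.89 CPM in members without it, and at 44.6 and 1.87 CPM in other cardiomyocytes (-2.65, -3.49 to -1.81). *GABRP* was thus higher with PD173074 in both cell sets, and more so outside the members; the part of epithelial RNA was not tested.

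In 2D culture, 43 genes were higher in the 133 members than in the other cardiomyocytes (0.531% of 8105) and 2 were lower (0.0247%). Of the 43, 5 had more than 50% of their member UMIs in 1 cell, against 0 of 48 with PD173074 and 2 of 27 without PD173074. *HTR2C*, a serotonin receptor, had all 42 of its member UMIs in 1 cell. Of the 43, 7 were genes of the stromal and extracellular matrix lists, against 0 of 48 with PD173074 and 0 of 27 without PD173074 at this limit. These lists together hold 29 genes, and 8105 genes were tested in 2D culture. With PD173074 *COL1A2* fell just short of the limit, at 193 CPM in members and 90.4 CPM in other cardiomyocytes (log2 ratio 1.10, 0.98 to 1.21). *FN1*, fibronectin, was at 923 CPM in members and 200.02 CPM in other cardiomyocytes of 2D culture, *COL1A1* at 406 and 147 CPM, *COL1A2* at 348 and 143 CPM and *COL3A1* at 363 and 151 CPM, and *FBN1*, *LUM* and *DCN* were the others. A single cell held 27.8% of the 1013 *FN1* UMIs of the 2D members. *FSTL5*, *SAMD5* and *LINGO2* were also higher in members of all 3 groups. The genes lowest in 2D members were *MYL2* and *MYH7*.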

How the data were processed

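Single-cell RNA of H9 cells was measured in 11 droplet libraries of the 3′ ends of transcripts. Raw UMI counts per gene and barcode were deposited. The submitters' processing notes name Cell Ranger 7.0.0 and the build hg38. For the annotation release and the counting of introns, no source used here gives a statement. Reads in introns can raise the counts of long genes. *SAMD5* and AL033504.1 overlap on the same strand, and *TFPI2* and *GNGT1* on opposite strands. The part of these overlaps in the counts was not tested.

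Groups came from the treatment labels. Run 1 of each group was used, since libraries of a group were repeat runs of the same droplets. Doublets were not called, and leaving out the top 5% of barcodes by UMIs was tried in place of that. Counts were summed over the cells of a set and given as CPM, the gene's UMIs per 1000000 UMIs of that set. Exact binomial and Poisson 95% intervals were computed, and ratios of 2 sums had exact conditional binomial intervals. With 1 sample a group, no p-value was computed. A gene was called at 20 CPM in the higher set with its whole interval beyond 2-fold, and counted in a list at 10 CPM beyond 1.5-fold. Ratios of ratios had Wald intervals. Python 3.11.15 with numpy 2.4.6, scipy 1.17.1, pandas 2.3.3 and matplotlib 3.10.9 was used. The calls and intervals were tested on simulated Poisson counts, which hold no spread between cells.

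The members, the gene lists and the comparisons were chosen with earlier results of these data known. The named genes were the 10 highest and 10 lowest called in each comparison, those called in both cardioids, up to 4 of each list described, and a set of always-named heart genes; rule genes and clone names were left out of the ranks, and AL355612.1, AL033504.1 and the chromosome 7 neighbours were named after their values were seen, as were the genes given for the ratio of ratios, for detection in 1 cell and as list members past the limit. Positions are from GENCODE 29 on GRCh38, which held 34616 of the 36601 gene IDs, and sequences are from RefSeq. Some genes that met these rules are not reported here.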

Additional observations from a re-analysis of the deposited data

Results flagged for a closer look

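*DLK1*, a membrane ligand related to Notch ligands, went opposite ways in members of the cardioids. With PD173074 it was at 32.9 CPM in members and 59.3 CPM in other cardiomyocytes, a log2 ratio of -0.85, and without PD173074 it was at 25.7 and 6.55 CPM, a log2 ratio of 1.97. The difference was not tested. Of its 52 UMIs in members without PD173074, 50 lay in 1 cell.

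*CRABP1*, a carrier of retinoic acid, did the same. It was at 19.2 CPM in members and 36.9 CPM in other cardiomyocytes with PD173074, a log2 ratio of -0.94, and at 24.2 and 2.17 CPM without PD173074, a log2 ratio of 3.48. The difference was not tested. Of its 49 UMIs in members without PD173074, 28 lay in 1 cell.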

How the results depend on the processing

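Run 1 was set against runs 2 and 3, other rules for members and cardiomyocytes, thinning, other scalings and other limits; comparing with other cardiomyocytes free of *SHOX2* was chosen after seeing the data. No paired analysis was possible because libraries of a group are repeat runs of 1 set of droplets, so neither replicates nor pairs exist and none could be left out. The member share was higher with PD173074 under every setting run. Its difference of 8.13 percentage points was 12.3 in run 3, 10.0 with 2 or more UMIs, 5.42 with 5 or more, 5.98 with *GFRA1* and *CDH18* alone, 4.37 after thinning and 6.14 without cells of 3 or more epithelial or endoderm UMIs, which leaves 1799 of 3385 and 1585 of 3082 cardiomyocytes. The counts of genes moved most with the limits. Thinning changed only which cells were chosen, and gene levels still used all UMIs of those cells. The 48 genes higher in members with PD173074 were 29 at a floor of 50 CPM, 87 with no floor and 129 at 1.5-fold. The 39 lower were 18, 81 and 129 under these limits, 68 after thinning, 16 with *SHOX2* cells kept as members, 18 with *TNNT2* and *MYH6* at 0.5%, 25 without cells of epithelial or endoderm UMIs and 25 against others free of *SHOX2*. The 27 higher without PD173074 were 13, 76 and 89 under the same limits, 46 with 5 or more UMIs, 17 with *GFRA1* and *CDH18* alone and 45 without the 5% of barcodes with most UMIs. The 6 lower were 12 with no floor, 18 at 1.5-fold, 3 with 2 or more UMIs, 12 with 5 or more, 13 without the deepest barcodes and 11 without cells of epithelial or endoderm UMIs. Between members with and without PD173074, the 63 higher genes were 37, 97 and 171 under the 3 limits, 98 with 2 or more UMIs, 41 with 5 or more, 96 with *GFRA1* and *CDH18* alone, 37 after thinning, 41 with *TNNT2* and *MYH6* at 0.5%, 38 without the deepest barcodes and 35 without cells of epithelial or endoderm UMIs. The 73 lower were 48, 123 and 173 under the 3 limits. The floor and fold change which genes can pass; the cause of the other moves was not tested.

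Of 2338 recomputed values of 146 gene ratios, 2328 kept their direction and 10 reversed. Another 580 kept their direction but lay outside the counting interval of the main ratio. Settings that changed only the floor or the fold left every ratio as it was and could not reverse it. Runs 2 and 3 are of the same droplets, so the count is no measure of repeatability. The ratio of *CDH20* with PD173074 was 0.38 with *SHOX2* cells kept as members, that of *COL6A3* 0.093 there and 0.12 without the deepest barcodes, and that of *TENM1* 0.41 against others free of *SHOX2*. Without PD173074, *COL1A1* was at 0.46 without the deepest barcodes and 0.062 without cells of epithelial or endoderm UMIs, and in run 3 *CRABP1* was at -0.15 and *DLK1* at -0.80. Between members with and without PD173074, *HIF1A-AS3* was at 0.36 without cells of epithelial or endoderm UMIs and *TCIM* at -0.75 after thinning. The cause was not tested. Median-of-ratios scaling shifted all log2 ratios by 0.02, 0.02 and -0.08. Depth limits *RET* and *GDNF*, and genes under 20 CPM in members without PD173074 and in 2D culture.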
